A study of Mus musculus with 10 samples.

Results

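The genes described here encode the presynaptic machinery that docks, primes and fuses synaptic vesicles. They were taken from a gene table of mouse cerebral cortex by symbol: the synaptotagmins (Syt), syntaxins (Stx), vesicle-associated membrane proteins (Vamp), syntaxin-binding proteins (Stxbp), RIM scaffolds (Rims), Unc13 priming factors, complexins (Cplx), synapsins (Syn), the Sv2 glycoproteins, Snap25, Bsn and Pclo. The symbols matched 66 of 55401 listed genes, and all 66 enter the counts below. The rule reads symbols, not measured values, but the set and its classes were drawn up with earlier results of these data known. RNA was sequenced from cortex of 5 mice with traumatic brain injury (TBI) and 5 control mice, each library from its own mouse. The controls are Sham in the sample titles and naive in the series' design text, so whether they were operated on is not settled. Strain, sex, age, injury model and time after injury are not given in the sources used here. The question was which genes differ in level between injured and control cortex.

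Neurotransmitter release runs in steps. A protein scaffold at the active zone, built from RIM, Bassoon, Piccolo and Munc13 proteins, holds vesicles next to calcium channels and readies them for fusion. SNARE proteins on the vesicle (Vamp) and on the plasma membrane (Stx, Snap25) then zip together under the control of Munc18 and complexin proteins, and synaptotagmins trigger fusion when calcium enters. Several Stx and Vamp genes serve membrane traffic elsewhere in the cell, in endosomes, the Golgi apparatus and lysosomes, and are not particular to synapses. The genes were described in 4 classes: active zone (10 genes), SNARE (23), SNARE regulators (10) and vesicle proteins (23).

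Levels are given as FPKM, fragments per kilobase of transcript scaled to the depth of the library, with the SD over 5 libraries after ±. Changes are log2 changes of the counts, TBI minus Sham, from the quasi-likelihood test of edgeR, with an approximate SE. A gene passed when its p, adjusted by Benjamini-Hochberg over all 16316 tested genes, was under 0.05. Library totals were 47.6 to 70.5 megacounts in TBI and 59.4 to 71.3 megacounts in Sham, at an estimated 4 counts for each sequenced fragment. The 66 genes took 1.54% to 1.70% of the counts in TBI libraries and 1.59% to 1.79% in Sham libraries. All 10 neuron markers were measured, with summed levels of 697 to 824 FPKM in TBI and 742 to 822 FPKM in Sham. Markers of other cells moved with the groups. All 10 microglia and macrophage markers rose, with summed levels of 441 to 888 FPKM in TBI and 183 to 208 FPKM in Sham, and 2 of 8 astrocyte markers rose (625 to 781 FPKM in TBI, 385 to 445 FPKM in Sham; 4 of 8 in DESeq2 and 4 of 8 in limma). Fibroblast markers rose in 3 of 6 cases (14.0 to 26.6 FPKM in TBI, 9.24 to 14.1 FPKM in Sham) and endothelial markers in 1 of 7 (46.0 to 55.1 FPKM in TBI, 40.6 to 49.5 FPKM in Sham), while 0 of 8 oligodendrocyte markers passed (501 to 834 FPKM in TBI, 508 to 775 FPKM in Sham), nor did any in DESeq2 or at an unadjusted p under 0.05. Choroid plexus markers summed to 866 FPKM in TBI replicate 1 and 29.99 FPKM in Sham replicate 3, against 1.19 to 4.95 FPKM in the other 8 libraries. Red cell genes summed to 113 to 347 FPKM in TBI and 97.2 to 194 FPKM in Sham. In bulk tissue, fewer cells of a type and less RNA per cell cannot be told apart.

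Few of the presynaptic genes passed. Of the 66 genes, 59 were expressed highly enough to be tested, 1 rose in TBI and 3 fell, while 55 did not pass. The gene that rose is Vamp8, a SNARE of endosomes, and Unc13a and Rims1, genes of the active zone, are among those that fell. Without TBI replicate 1 or without TBI replicate 2, 0 of the 59 passed. Over all tested genes, 3.57% passed as higher and 0.472% as lower, 4.04% in all. At an unadjusted p under 0.05 there were 11 of the 59, 10 of them lower in TBI, against 15.0% of all tested genes in either direction and 5.42% lower. The log2 change was below 0 for 40 of 59 (67.8%), beside 52.67% of all tested genes. The median was -0.09, beside a median of -0.01 over all tested genes. The neuron markers had a similar median of -0.10, with 8 of 10 below 0. On the ratio of mean FPKM the sign turned above 0 for 6 of those 40, all with a log2 change of at most 0.036 in size. The FPKM ranges of the groups did not overlap for 2 genes, Unc13a and Rims1, both lower in TBI. Over all tested genes 6.33% did not overlap, 5.6% higher and 0.729% lower in TBI.

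The promoters of 3 of the genes that passed are shown so that their letters can be compared beside the opposite directions of their changes. RefSeq windows on GRCm38.p6 run from 250 bases before to 50 after the start and were found for 50 of the 66 genes (65 windows). All 3 below are on the minus strand and are written 5′ to 3′ along the gene; capitals mark the motif matches. The windows are chr8:71671708-71672007 for Unc13a, chr1:22806109-22806408 for Rims1 and chr6:72390618-72390917 for Vamp8. The Rims1 window, its RefSeq start included, lies wholly outside the Rims1 gene as measured here, which ends at 22805724.
Unc13a: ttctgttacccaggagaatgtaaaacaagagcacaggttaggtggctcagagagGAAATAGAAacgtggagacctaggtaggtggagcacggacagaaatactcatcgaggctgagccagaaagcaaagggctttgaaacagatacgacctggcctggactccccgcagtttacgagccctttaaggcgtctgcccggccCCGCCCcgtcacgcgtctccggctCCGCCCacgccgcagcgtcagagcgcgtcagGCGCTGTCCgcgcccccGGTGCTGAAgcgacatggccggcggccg
Rims1: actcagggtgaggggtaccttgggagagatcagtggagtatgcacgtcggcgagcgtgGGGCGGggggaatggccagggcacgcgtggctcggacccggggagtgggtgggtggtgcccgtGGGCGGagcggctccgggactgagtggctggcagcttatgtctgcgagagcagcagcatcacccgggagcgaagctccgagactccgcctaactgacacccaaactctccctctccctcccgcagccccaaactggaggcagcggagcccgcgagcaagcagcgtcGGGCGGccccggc
Vamp8: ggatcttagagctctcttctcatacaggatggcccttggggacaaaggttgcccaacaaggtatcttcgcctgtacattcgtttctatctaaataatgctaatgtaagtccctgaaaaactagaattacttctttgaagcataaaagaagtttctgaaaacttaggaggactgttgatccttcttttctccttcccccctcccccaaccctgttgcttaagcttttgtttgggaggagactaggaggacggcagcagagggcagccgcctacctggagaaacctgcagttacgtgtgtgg
Both strands were searched for 5 motifs. The GC box GGGCGG, a site of Sp1-type factors, was in 35.7% of 32851 RefSeq promoters and in 43 of the 65 windows (66.2%). Unc13a held it at window positions 201 to 206 and 225 to 230, and Rims1 at 59 to 64, 122 to 127 and 288 to 293. The left and right parts of the RE1 element, which is bound by the neuronal repressor REST, were searched as TTCAGCACC and GGACAGCGC and were in 0.371% and 0.405% of promoters. Unc13a held both, on the opposite strand and just past its start (positions 256 to 281). With Unc13a included, 5 of the 32851 promoters held both (0.0152%). The right part was shortened after its matches were seen, so this percentage cannot show how unusual the Unc13a pair is. The parts lay 8 bases apart in Unc13a, where the standard element has 2. The interferon-type letters GAAANNGAA, also shortened after their matches were seen, were in 8.56% of promoters and at positions 55 to 63 of Unc13a. The cyclic AMP element TGACGTCA, in 1.79% of promoters, was in none of the 3 windows, and the Vamp8 window held none of the 5 motifs. A match is a description of the letters in a window, and a missing one says only that these letters are not there.

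The active zone class held both of the genes whose ranges parted. Unc13a encodes Munc13-1, which primes vesicles by opening syntaxin. Its levels were 24.8, 25.5, 26.5, 25.6 and 25.1 FPKM in TBI replicates 1 to 5, against 30.04, 35.3, 33.6, 28.7 and 28.5 FPKM in Sham replicates 1 to 5. Every TBI library lay below every Sham library, and the TBI values were the tighter group, at 25.5 ± 0.665 FPKM against 31.2 ± 3.07 FPKM. Unc13a fell 1.26-fold (log2 change -0.33, SE 0.07, edgeR adjusted p = 0.0196). It is ENSMUSG00000034799, on mm10 chromosome 8 from 71624417 to 71671757, and shares 495 bases with Colgalt1 on the other strand, so reads there cannot be assigned without strand information. Leaving out TBI replicate 1, 2 or 5 gave an adjusted p of 0.0585, 0.0522 or 0.0545; Unc13a passed without each of the other 7 libraries.

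Rims1 encodes RIM1, the scaffold that joins Rab3 on vesicles, calcium channels and Munc13. Its levels were 20.6, 22.03, 25.6, 22.1 and 24.8 FPKM in TBI, against 27.5, 33.1, 32.3, 30.5 and 25.99 FPKM in Sham. The groups parted narrowly, between TBI replicate 3 and Sham replicate 5. Rims1 averaged 23.0 ± 2.08 FPKM in TBI and 29.9 ± 3.06 FPKM in Sham, and fell 1.33-fold (log2 change -0.41, SE 0.09, edgeR adjusted p = 0.0234). It is ENSMUSG00000041670, on mm10 chromosome 1 from 22286251 to 22805724. The call did not hold in 5 of 10 single omissions: the adjusted p was 0.0646, 0.0676 and 0.054 without TBI replicates 1, 2 and 4, and 0.0654 and 0.0631 without Sham replicates 2 and 3.

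The other active zone genes did not pass, and 6 of the 7 tested had a log2 change below 0, beside 52.67% of all tested genes. Rims2, a close relative of Rims1, was at 6.38 ± 0.386 FPKM in TBI and 7.65 ± 1.58 FPKM in Sham (log2 change -0.30, edgeR adjusted p = 0.256), and the highest Sham value, 10.3 FPKM, was that of replicate 2. Unc13c, the Munc13 form best known from cerebellum, was at 1.87, 2.93, 1.88, 4.32 and 3.08 FPKM in TBI, against 5.43, 4.23, 4.65, 2.46 and 6.07 FPKM in Sham (log2 change -0.74, edgeR adjusted p = 0.219). Its groups overlapped through TBI replicate 4 and Sham replicate 4. Bassoon (Bsn) and Piccolo (Pclo), the large scaffold proteins of the active zone, were at 26.2 ± 1.77 and 5.39 ± 0.279 FPKM in TBI, against 27.4 ± 3.06 and 6.05 ± 1.38 FPKM in Sham. Unc13b, which encodes Munc13-2, was at 2.33 ± 0.374 FPKM in TBI and 2.26 ± 0.356 FPKM in Sham (log2 change 0.00, SE 0.13). Rims3 and Rims4, short forms of RIM, had log2 changes of -0.19 and -0.11. For the whole class the median log2 change was -0.21. In edgeR 4 of 9 genes had an unadjusted p under 0.05, all lower, beside 15.0% of all tested genes (5.42% lower). Of the 9, 2 passed, both lower, beside 4.04% of all tested genes (0.472% lower). The summed level of all 10 genes was 106 to 119 FPKM (median 115) in TBI and 121 to 149 FPKM (median 126) in Sham, without overlap. This sum includes Unc13a and Rims1, the 2 genes whose own ranges parted, so it is not separate evidence for the class. The other classes overlapped: SNARE at 991 to 1108 FPKM in TBI and 1048 to 1231 FPKM in Sham, SNARE regulators at 600.4 to 775 FPKM in TBI and 636 to 840 FPKM in Sham, and vesicle proteins at 863 to 930.5 FPKM in TBI and 871 to 966 FPKM in Sham.

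**Figure D1:**
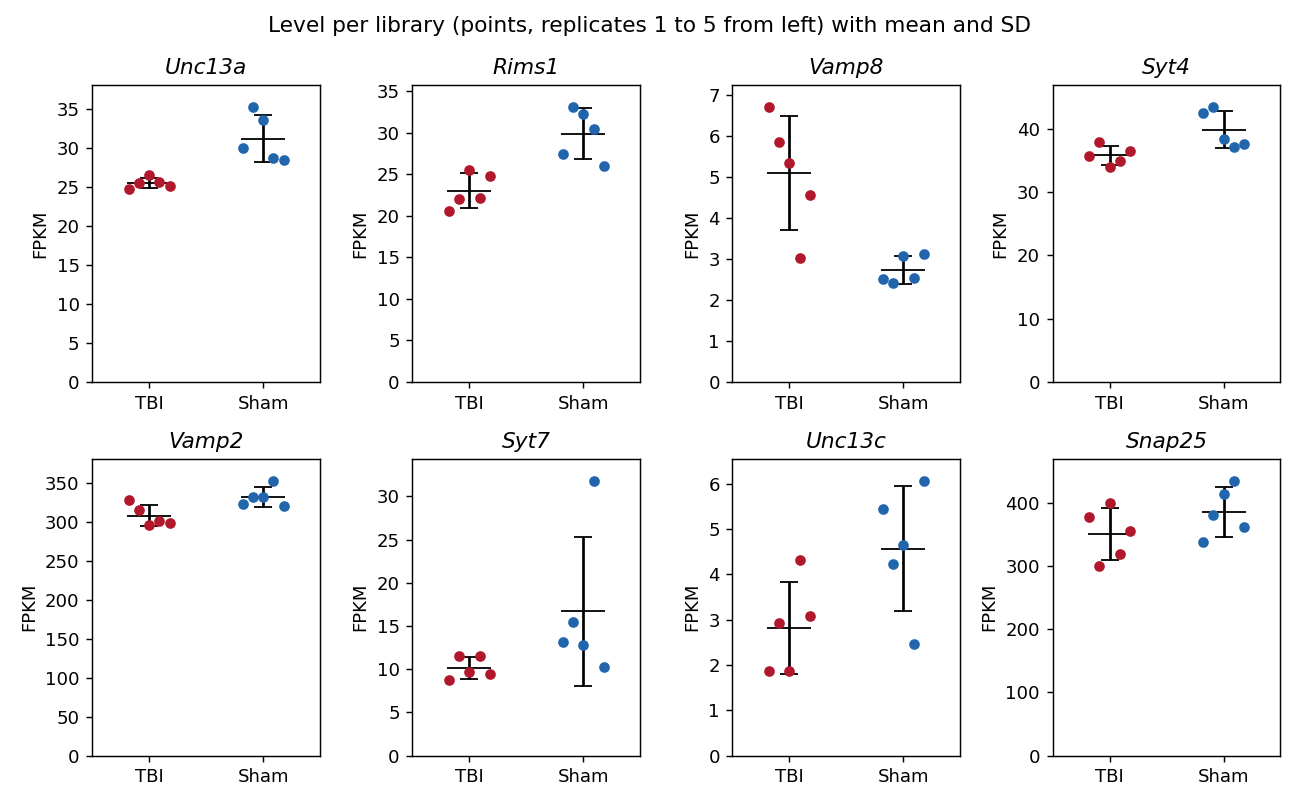
FPKM (y axes, from 0) of 8 named genes in TBI (red, left) and Sham (blue, right) libraries, 1 point per library in replicate order, with the mean and SD of 5. The Unc13a and Rims1 groups part, the Vamp8 groups meet at TBI replicate 4, and Syt7 has 1 high Sham library, at 31.8 FPKM.

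The SNARE class held the most abundant transcripts of the set. Stx1a, a plasma membrane SNARE of synapses, was at 98.3 ± 11.9 FPKM in TBI and 103 ± 17.0 FPKM in Sham (log2 change -0.11, edgeR adjusted p = 0.749). Stx4a, a syntaxin of most cells, was at 13.9 ± 1.09 FPKM in TBI and 15.2 ± 1.71 FPKM in Sham and did not pass. Both genes overlapped between the groups.

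Vamp8, which encodes endobrevin, a SNARE of endosomes and secretory granules in many non-neuronal cells, was the only gene of the 59 to rise. Its levels were 6.72, 5.85, 5.35, 3.04 and 4.56 FPKM in TBI, against 2.52, 2.41, 3.07, 2.53 and 3.11 FPKM in Sham. TBI replicate 4 lay below the highest Sham libraries, and the other 4 TBI libraries lay above all of them. Vamp8 averaged 5.10 ± 1.40 FPKM in TBI and 2.73 ± 0.334 FPKM in Sham and rose 1.82-fold (log2 change 0.86, SE 0.19, edgeR adjusted p = 0.0291). The summed microglia and macrophage markers, at 888, 573, 703, 441 and 598 FPKM in TBI replicates 1 to 5, were likewise highest in TBI replicate 1 and lowest in replicate 4; their part in the Vamp8 result was not tested. The call did not hold without TBI replicate 1, 2 or 3 (adjusted p of 0.0709, 0.0693 and 0.0719) or Sham replicate 1, 2 or 4 (0.0746, 0.0833 and 0.0643), and without TBI replicate 4 it was 0.00167. Vamp8 is ENSMUSG00000050732, on mm10 chromosome 6 from 72385223 to 72390703. Its neighbour Vamp5 (72368794 to 72380422), at 0.729 ± 0.166 FPKM in TBI and 0.565 ± 0.200 FPKM in Sham, had a log2 change of 0.33 and did not pass.

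The 2 most abundant genes of the set, Snap25 and Vamp2, are SNAREs of the fusion complex and did not pass. Snap25 was at 378, 299.6, 399.5, 319 and 356 FPKM in TBI, against 337, 381, 414, 435 and 361 FPKM in Sham (log2 change -0.18, SE 0.10, edgeR adjusted p = 0.456). Vamp2, the vesicle SNARE of fast release, was at 308 ± 13.5 FPKM in TBI and 332 ± 12.7 FPKM in Sham (log2 change -0.15, SE 0.05, edgeR adjusted p = 0.162). Its groups overlapped. Of the other SNAREs, Vamp3 (log2 change 0.23), Stx16 (0.21) and Stx2 (0.17) were higher in TBI without passing, and Vamp3 lies wholly within Camta1 on the same strand. Stx3, Stx5a, Stx6, Stx7, Stx8, Stx12, Stx17, Stx18 and Vamp4, mostly SNAREs of inner membranes, had log2 changes from -0.10 to 0.02 (edgeR adjusted p from 0.505 to 0.995). The class median was -0.03, with 12 of 20 tested genes below 0, beside 52.67% of all tested genes.

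In the SNARE regulators 0 of 9 tested genes passed in edgeR or DESeq2. In edgeR 0 had an unadjusted p under 0.05, beside 15.0% of all tested genes. The complexins Cplx1 and Cplx2, which hold assembled SNAREs ready for calcium, were at 299 ± 36.2 and 226 ± 21.3 FPKM in TBI, against 315 ± 48.8 and 245 ± 20.8 FPKM in Sham, with log2 changes of -0.12 and -0.16. Stxbp3, a Munc18 form of many tissues, had the highest log2 change of the class, 0.12, at 2.93 ± 0.438 FPKM in TBI and 2.61 ± 0.183 FPKM in Sham. Cplx3, Stxbp2, Stxbp4, Stxbp5 and Stxbp6 had log2 changes from -0.15 (Stxbp6) to 0.09 (Stxbp4), with edgeR adjusted p from 0.436 to 0.950. The class median was -0.03.

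In the vesicle class 0 of 21 tested genes passed in edgeR, beside 4.04% of all tested genes. DESeq2 called 1, lower in TBI, of 229 it called lower among all 16316 tested genes. The log2 change was below 0 for 15 of 21, beside 52.67% of all tested genes, with a median of -0.08. The 4 with an unadjusted p under 0.05 (Syt4, Syt16, Syt7 and Syt1) were all lower in TBI. Of all tested genes 15.0% were under this limit in either direction and 5.42% lower. Syt4, a synaptotagmin of dense-core vesicles, was at 35.8 ± 1.51 FPKM in TBI and 39.9 ± 2.94 FPKM in Sham (log2 change -0.19, SE 0.06, edgeR adjusted p = 0.105), and it was the gene that passed in DESeq2 (adjusted p = 0.0352). Syt1, the calcium sensor of fast release, was at 173 ± 9.48 FPKM in TBI and 189 ± 13.5 FPKM in Sham (log2 change -0.16, edgeR adjusted p = 0.275). Syt16, a divergent synaptotagmin, was at 8.92 ± 0.541 FPKM in TBI and 10.1 ± 1.12 FPKM in Sham (log2 change -0.22, edgeR adjusted p = 0.188). Each of these 3 overlapped between the groups.

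Syt7, a slow calcium sensor of asynchronous release, was at 8.74, 11.5, 9.67, 11.5 and 9.48 FPKM in TBI, against 13.1, 15.5, 12.8, 31.8 and 10.3 FPKM in Sham. The Sham value of replicate 4 stood far above the rest, and without it the log2 change went to -0.38 (edgeR adjusted p = 0.138), against -0.75 (0.199) with all libraries. The synapsin Syn1, which tethers vesicles to actin, was at 197 ± 17.2 FPKM in TBI and 195 ± 17.5 FPKM in Sham. Syt11, which does not bind calcium, was at 101 ± 2.28 FPKM in TBI and 101 ± 2.49 FPKM in Sham. Syt17 had the largest positive log2 change of the class, 0.26 (edgeR adjusted p = 0.706), with levels of 7.76 to 14.4 FPKM in TBI and 5.71 to 13.1 FPKM in Sham. The other tested vesicle genes were Sv2a, Sv2b, Sv2c, Syn2, Syn3, Syt2, Syt3, Syt5, Syt6, Syt9, Syt10, Syt12, Syt13 and Syt14. Their log2 changes ran from -0.34 (Syt6) to 0.15 (Syt10), with edgeR adjusted p from 0.626 to 0.996.

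**Figure D2:**
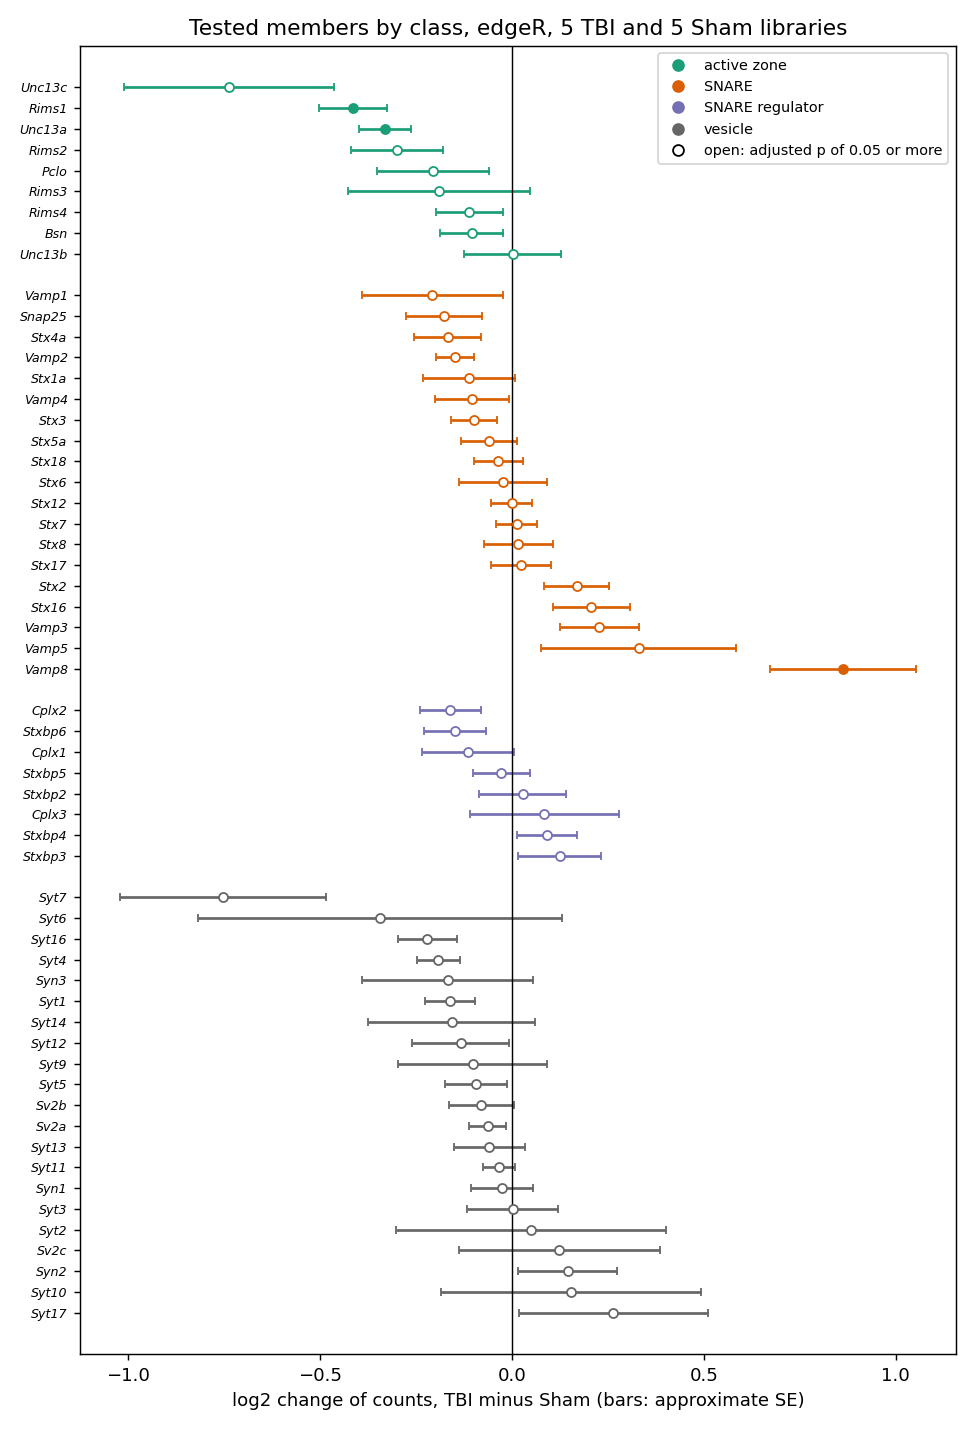
Log2 change of counts, TBI minus Sham (x axis), of 57 of the 59 tested genes by class (y axis), with bars of approximate SE; filled points had an edgeR adjusted p under 0.05. The 3 filled points are Rims1 and Unc13a in the active zone class and Vamp8 in the SNARE class, and 38 of 57 points lie left of 0.

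Levels of the 66 genes ran over a wide range. Mean FPKM over the 10 libraries was at least 100 for 10 genes (Snap25, Vamp2, Cplx1, Cplx2, Syn1, Syt1, Syt11 and Stx1a among them), from 10 to under 100 for 21, from 1 to under 10 for 26, above 0 and under 1 for 8, and 0 for Syt8. The top 4 held 43.6% of the summed FPKM. The SNARE class held 38.7%, the vesicle class 32.4%, the SNARE regulators 24.5% and the active zone class 4.35%. Unc13a and Rims1 stood in the second of these ranges and Vamp8 in the third.

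**Figure D3:**
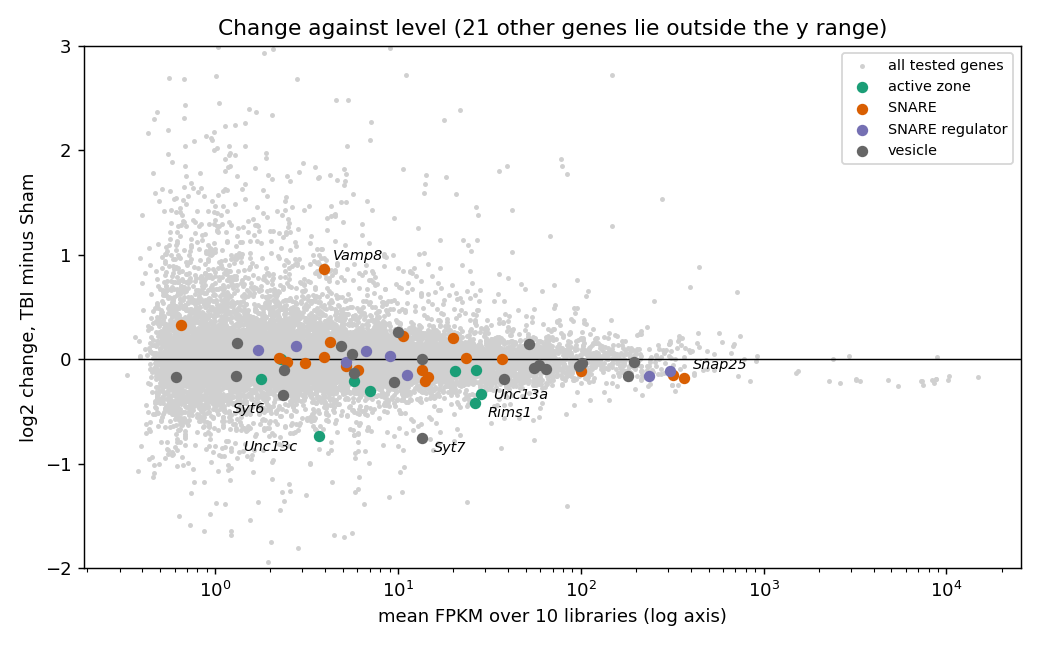
Log2 change of counts, TBI minus Sham (y axis), against mean FPKM over 10 libraries (log x axis) for the 16316 tested genes (grey) and 57 of the 59 tested genes of the set (coloured by class). Of the 16316, 21 lie outside the y range of -2 to 3 and are not seen. Vamp8 stands at 0.86, while the most abundant genes of the set lie near or below 0.

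The 7 genes below the filter of 0.5 FPKM in 5 libraries were Stx11, Stx19, Vamp9, Cplx4, Unc13d, Syt15 and Syt8, and their values were too low for a fold. Their counts summed to 93, 8, 68, 33, 401, 446 and 0 over the TBI libraries, against 48, 4, 38, 22, 273, 342 and 0 over the Sham libraries. Of the 59 that passed the filter, 3 (Vamp5, Syn3 and Syt10) reached it in all 5 TBI libraries but not in all Sham libraries. In 12 genes the SD within a group was over 30% of the mean, Syt6, Syt2, Syt10, Sv2c, Unc13c, Syt7, Syt17, Rims3, Vamp5, Syn3 and Syt14 among them. Snap25, Vamp1 and Cplx1 were each highest in TBI replicate 3 and Sham replicate 4 and lowest in TBI replicate 2 and Sham replicate 1.

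Ratios of related genes within a library were compared as a description. The Unc13a/Unc13b ratio was 8.73 to 12.6 (median 11.9) in TBI and 12.7 to 15.2 (median 14.1) in Sham, so the ranges did not overlap. The gap was narrow, from 12.56 to 12.72. Unc13a parted by itself, so this ratio is not separate evidence. The other 7 ratios overlapped between the groups, among them Cplx1/Cplx2 at 1.09 to 1.59 in TBI and 1.01 to 1.75 in Sham, and Rims1/Rims2 at 3.34 to 3.93 in TBI and 3.21 to 4.49 in Sham.

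**Figure D4:**
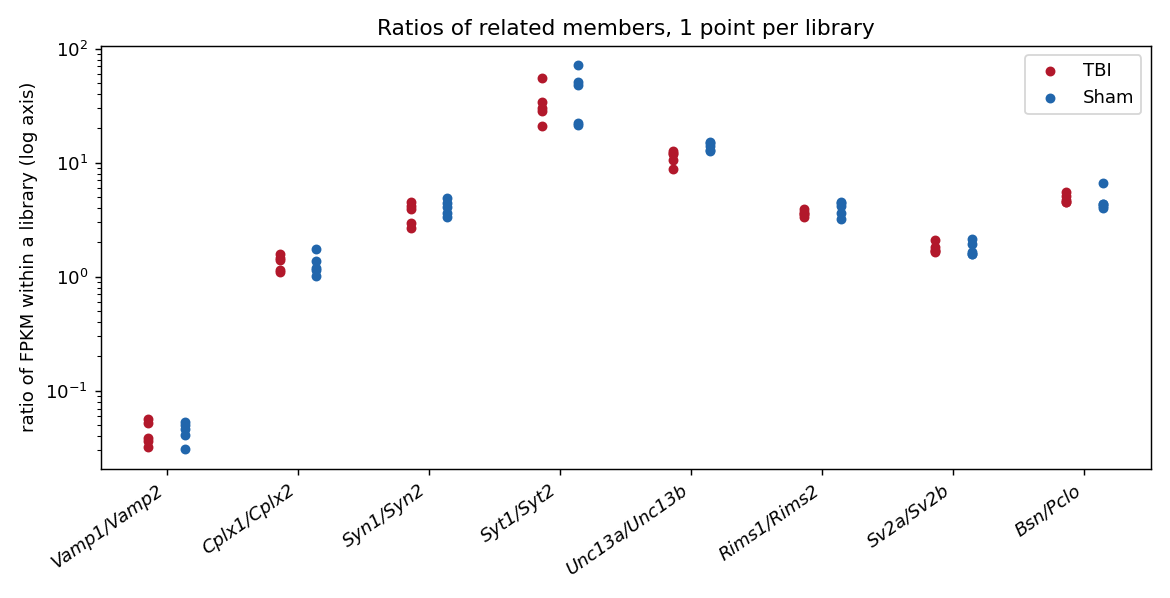
FPKM ratio of related genes within a library (log y axis), TBI in red on the left and Sham in blue on the right, 1 point per library. The Unc13a/Unc13b ratio lies at 8.73 to 12.6 in TBI and at 12.7 to 15.2 in Sham, and the other 7 pairs of groups overlap. Unc13a parts by itself, so its ratio is not separate evidence.

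A wider list of 54 other presynaptic genes was all tested. Of these, 1 rose, Snap23, and 0 fell, beside 3.57% and 0.472% of all tested genes. The log2 change was below 0 for 44 of the 54 (81.48%), beside 52.67% of all tested genes, with a median of -0.10. At an unadjusted p under 0.05, 9 were lower, beside 5.42% of all tested genes. DESeq2 called 3 lower (Rph3a, Scamp5 and Slc17a6), of 229 it called lower among all 16316 tested genes. Snap23, the widely expressed relative of Snap25, was at 3.90, 3.90, 3.79, 3.96 and 3.89 FPKM in TBI, against 3.38, 2.98, 2.67, 2.78 and 3.34 FPKM in Sham (log2 change 0.32, SE 0.07, edgeR adjusted p = 0.0373). Its groups did not overlap, as was so for 2 of the 54 and for 6.33% of all tested genes. Snap23 passed in only 2 of 10 single omissions, those of Sham replicates 1 and 5 (edgeR adjusted p of 0.0296 to 0.0951 over the 10). Among those that did not pass, Rph3a, a Rab3 effector, was at 69.1 ± 12.3 FPKM in TBI and 96.5 ± 11.5 FPKM in Sham (log2 change -0.52, edgeR adjusted p = 0.0539). Napg, an adaptor in SNARE recycling, was at 17.1 and 16.8 FPKM in Sham replicates 1 and 4 and at 3.48 to 4.43 FPKM in the other 8 libraries. Napg also did not overlap, with TBI at 3.48 to 4.10 FPKM and Sham at 4.24 to 17.1 FPKM. The neurofilament gene Nefl, a neuron marker, was the 1 of 10 neuron markers that fell in edgeR (2 in DESeq2, Nefl and Elavl4, and 0 in limma), at 104 ± 6.25 FPKM in TBI and 118 ± 3.02 FPKM in Sham (log2 change -0.22, edgeR adjusted p = 0.0432); among the single omissions it passed only without TBI replicate 3 (adjusted p of 0.037 to 0.122 over the 10).

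**Figure D5:**
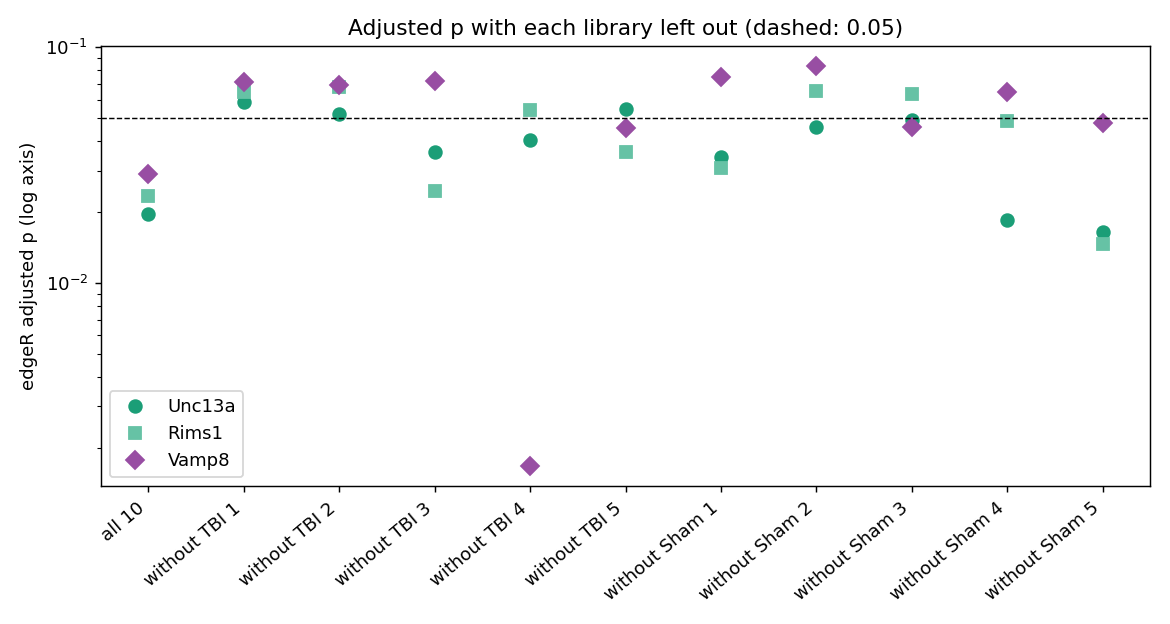
EdgeR adjusted p (log y axis; dashed line, 0.05) of Unc13a, Rims1 and Vamp8, with all 10 libraries and with each left out (x axis). Unc13a stays under the line in 7 of 10 omissions, Rims1 in 5 and Vamp8 in 4; without TBI replicate 1 or 2 all 3 lie above it.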

How the data were processed

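Per the labels' protocols, cortical total RNA was extracted with TRIzol and read on an Illumina NovaSeq as pairs of 150-base reads. Adapter trimming with cutadapt 1.9, HISAT2, StringTie and the build mm10 are named in the submitters' processing notes, with no order or settings; the counting tool is not given in the sources used here. The deposited table gives, per the file headers, estimated counts and FPKM of each gene in each library. The deposited counts are whole numbers, and 42.6% of values from 1 to 12 are 4, 8 or 12. This was read as about 4 counts for 1 fragment, which is an estimate that these values do not settle. The main fit used the counts undivided. The deposited FPKM were scaled to transcript length and library depth by the authors; the fill value of 0.0001 was read as 0. Groups and replicate numbers come from the sample titles, and 0 sample columns were unused. The p-values measure the spread between mice.

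Genes with at least 0.5 FPKM in 5 or more of 10 libraries (16316) were tested with edgeR 4.0.16 in R 4.3.3 (TMM scaling; two-sided quasi-likelihood F test on group; Benjamini-Hochberg). The SE is the absolute log2 change over the square root of F. The method was tested on simulated data over 16316 genes, where it recovered 48 of 100 genes changed 1.5-fold and 77 of 100 changed 2-fold. It also called 9 unchanged genes. On the same simulated data DESeq2 recovered 68 and 84 of 100 and called 49 unchanged genes, so genes called by DESeq2 alone are less certain. Alternatives were 2 other filters, DESeq2 1.42.0 size factors and test, counts divided by 4, limma 3.58.1 on log2 FPKM with pseudocounts of 1 and 0.1, robust fitting, a replicate block and leaving out libraries. The named genes were all that passed, those with an unadjusted p under 0.05, the 3 most abundant and the largest changes up and down of each class, and called genes of the wider list; others named for their biology were picked after their values were seen. The genes, classes and lists were chosen with earlier results of these data known. The totals and class counts cover all 66 genes, but the values of 2 of them are not reported here; others are given as ranges. Promoters are from RefSeq; the motifs were chosen without a test, and the RE1 right part and the interferon-type motif were each shortened by 1 letter after their matches were seen.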

Additional observations from a re-analysis of the deposited data

Results flagged for a closer look

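The 19 genes of the naming rule reported here gave 38 groups of 5 libraries, and in 2 of them 1 library stood far from the other 4; chance alone flags about 1 in 20 groups. Syt7 was at 31.8 FPKM in Sham replicate 4, above the other Sham libraries. Syt11 was at 105 FPKM in TBI replicate 3, above the other TBI libraries by a small amount.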

How the results depend on the processing

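Of 380 comparisons of a single named gene with an alternative, 348 kept direction and side of the threshold, 19 lost the call, 1 gained it (Syt4 in DESeq2, -0.20) and 12 changed sign, in 3 genes: Syn1 0.013 in both limma settings and -0.07 to 0.032 over single omissions, Syt11 0.006 in both limma settings, and Unc13b -0.003 with DESeq2 size factors and DESeq2 and -0.081 to 0.075 over single omissions. Genes higher in TBI numbered 582, against 337 with a filter of 2 FPKM, 373 with the replicate block, 299 without replicate 3 of both groups (chosen after seeing the data) and 441 to 659 over single omissions. They numbered 837 in DESeq2, and 680 and 665 in limma with pseudocounts of 1 and 0.1. Genes lower numbered 77, against 43 with no filter, 48 with 2 FPKM, 229 in DESeq2, 42 and 39 in limma with pseudocounts of 1 and 0.1, 29 with the block, 27 without replicate 3 of both groups and 37 to 84 over single omissions. Presynaptic genes higher numbered 1, against 0 with the block and without replicate 3 of both groups, and 0 to 1 over single omissions. Those lower numbered 3, against 1 with the block (Unc13a, edgeR adjusted p = 0.0469), 0 without replicate 3 of both groups and 0 to 3 over single omissions. Only 2, Rims1 and Unc13a, were lower with no filter, with 2 FPKM, with counts divided by 4 and in both limma settings. DESeq2 called 4 lower. The median log2 change of the tested presynaptic genes, -0.093, was -0.061 with no filter, -0.041 and -0.054 in limma with pseudocounts of 1 and 0.1, and -0.107 to -0.055 over single omissions. The cause of these shifts was not tested. Over all tested genes, deviations of same-numbered libraries correlated at 0.002, 0.165, 0.112, -0.141 and 0.073. Of the 5 TBI libraries, 1 correlated best with its own number. These weak correlations show no pairing by replicate number, but they cannot exclude a pairing or a batch that touches few genes. Depth limits the genes under 0.5 FPKM.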
